A study of Rattus norvegicus with 4 samples.

Results

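Sheets of wild-type L6 myoblasts were compared with monolayers of the same cells by whole-genome expression arrays. L6 is an established rat skeletal myoblast line, labelled here as of Wistar strain. The comparison held 2 of the 4 arrays of the series, chosen by their titles, 1 from an L6-WT sheet and 1 from an L6-WT monolayer culture. The other 2 arrays were from L6-HGF myoblasts in the same formats, and they are used here only as the comparison most like this one. L6-HGF cells are L6 cells that took up human hgf from the retroviral vector pBabepuro and were selected in puromycin. No line with the empty vector was described, so that hHGF, vector and selection cannot be told apart in any difference between the lines. For a sheet, myoblasts were plated densely on a thermoreactive dish, from which the cell layer came off in 1 piece at room temperature. The density and age of the monolayers, and whether sheets were lysed before or after they had come off, were not given in the sources used here. Plating density, dish surface, detachment and format therefore cannot be told apart. The study grafted such sheets onto infarcted rat hearts as a source of secreted factors, and the comparison asks how the transcripts of the donor cells differ between the form that was grafted and the usual culture.

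Skeletal myoblasts are the committed precursors of muscle fibres, and they divide while attached to a rigid dish, where actin stress fibres anchored at focal adhesions pull on the substrate. Tension of this kind keeps the serum response factor and YAP transcription programmes active. Cells in a dense layer contact each other on all sides and deposit their own matrix. Hypoxia-inducible factor (HIF) is degraded when oxygen is plentiful, and when oxygen is low it raises the transcription of glycolytic enzymes, glucose transporters and vascular growth factors. Small leucine-rich proteoglycans are secreted proteins that bind collagen fibrils and set their width and spacing.

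Each array gave 1 value for each of 31042 probe sets after 57 control probe sets had been left out, and the difference is the sheet value minus the monolayer value on the log2 scale, in which 1 is a 2-fold difference. A gene is the mean of its probe sets that carry 1 gene symbol, which gave 14217 genes. The deposited values are centred on the median of the 4 arrays for each probe set, so that they show how arrays differ from each other and not how strongly a gene is expressed. With 1 array for each condition there is no replicate and no test, and all values below carry that limit in precision. The spread of the 45 bacterial control probe sets between the L6-WT arrays was 0.18 (SD, log2), around a mean of 0.20, and 0 of them passed 2-fold. The control probe set for 5S ribosomal RNA was 0.85 higher in the L6-WT sheet and 0.14 higher in the L6-HGF sheet. In L6-WT the sheet minus monolayer value of the 3' control probe set exceeded that of the 5' one by 0.00 for GAPDH. The excess was 0.17 for beta-actin and 0.31 for hexokinase. These values compare RNA integrity between the L6-WT arrays, and the integrity of either array cannot be read from centred values.

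In the L6-WT sheet 160 probe sets were more than 2-fold higher than in the monolayer (0.515% of those compared) and 207 were more than 2-fold lower (0.667%). Of 14217 genes 102 were more than 2-fold higher (0.717%) and 70 more than 2-fold lower (0.492%). Which side held more depended on the settings: at 1.5-fold 479 genes were higher and 534 lower, and with the centred values quantile-normalized 268 probe sets were higher and 264 lower. Differences of more than 4-fold were found for 16 genes that were higher and 2 that were lower. The median over all genes was 0.03, and 95% of genes lay between -0.66 and 0.65. That normalization gave 163 higher and 80 lower genes. Of the 102 higher genes 20 had several probe sets, and in 11 of these every probe set passed 2-fold. Among the 70 lower genes the corresponding numbers were 25 and 13.

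The 2 largest positive differences in the L6-WT sheet were in genes of the extracellular matrix, and the largest negative one was in the gene for an inhibitor of glucose uptake. Dcn, which codes for decorin, a proteoglycan that binds collagen fibrils and transforming growth factor beta, had the largest positive difference of all genes. Its centred log2 value was -1.22 in the L6-WT monolayer, 2.14 in the L6-WT sheet, -1.20 in the L6-HGF monolayer and 1.20 in the L6-HGF sheet. Both sheets were thus above both monolayers, and the difference of 3.36 in L6-WT was 10.3-fold. Dpt, which codes for dermatopontin, a small matrix protein that binds decorin, was 10.1-fold higher. It had -1.13 in the L6-WT monolayer and 2.21 in the L6-WT sheet, against -2.36 and 1.13 in the L6-HGF monolayer and sheet. Its 2 probe sets gave 3.54 and 3.14.

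**Figure D1:**
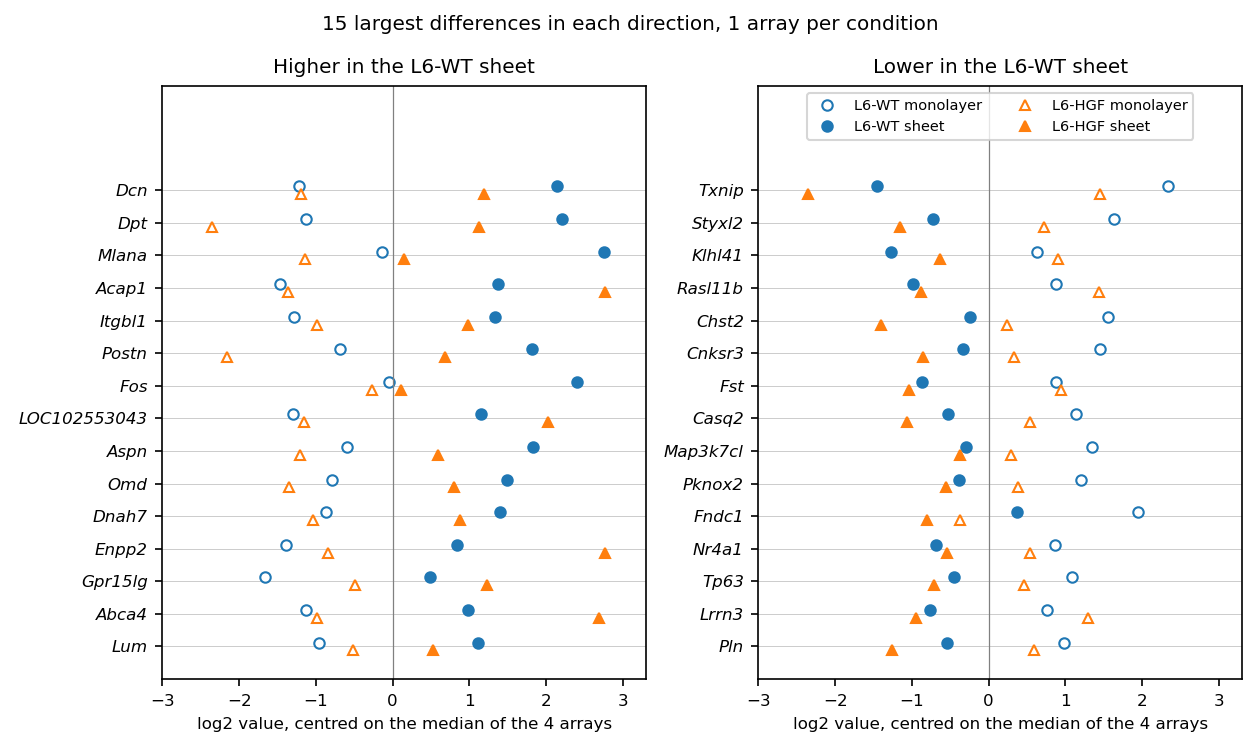
Centred log2 value (horizontal axis) of 30 genes, the 15 at either end of the ranking by L6-WT sheet minus monolayer, with 1 point per array: open symbols are monolayers, filled symbols sheets, circles L6-WT and triangles L6-HGF. Filled and open circles are farthest apart for Txnip (-3.79) among the lower genes and Dcn (3.36) among the higher ones, and for Fos the L6-HGF sheet stayed near both monolayers.

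Of 50 measured matrix glycoproteins and proteoglycans, 8 were more than 2-fold higher in the L6-WT sheet, which is 16% of the list against 0.717% of all genes. In this list 1 was more than 2-fold lower (2%, against 0.492% of all genes). The higher members were Dcn, Dpt, Postn, Aspn, Omd, Lum, Ccn3 and Ccn5. The list's median of 0.08 was near that of all genes (0.03). Postn, which codes for periostin, a secreted protein of collagen-rich tissue, was 5.64-fold higher. Its values were -0.69 in the L6-WT monolayer and 1.81 in the sheet, and -2.15 and 0.69 in the L6-HGF monolayer and sheet, so that the L6-WT monolayer lay between the L6-HGF arrays. The small leucine-rich proteoglycans Aspn (asporin), Omd (osteomodulin) and Lum (lumican) were 5.33-fold, 4.89-fold and 4.20-fold higher. Ccn3 and Ccn5, matricellular proteins of the CCN family, were 2.94-fold and 2.04-fold higher.

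Other members of the proteoglycan family were within 2-fold. Podn, Prelp and Ogn had differences of 0.89, 0.80 and 0.60, Bgn (biglycan) had -0.02, and Fmod (fibromodulin), a close relative of lumican, had -0.65. In the rat gene table Omd and Aspn lie next to each other on chromosome 17, with Ogn (0.60) on one side and Ecm2 (-0.04) close by on the other. Dcn and Lum lie next to each other on chromosome 7, and the neighbouring genes Kera and Epyc had no probe set with 1 symbol. The member that was lower was Fndc1, a fibronectin-domain protein, at 2.99-fold lower, with 1.95 in the L6-WT monolayer and 0.37 in the sheet against -0.37 and -0.80 in the L6-HGF monolayer and sheet. Here the L6-WT monolayer alone was high.

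Structural collagens differed little or lay on the other side. Of 45 collagens, laminins and their modifying enzymes 1 was more than 2-fold higher (2.22%, against 0.717% of all genes), the laminin chain Lamb3 (2.21-fold). In this list 0 were lower, and the median was -0.17. The fibril collagens Col1a1, Col1a2 and Col3a1 had -0.43, -0.36 and -0.11, and Lamc1, a laminin chain of basement membranes, had -0.81. Of 34 matrix proteases and inhibitors 0 were more than 2-fold higher and 3 were lower (8.82%, against 0.492% of all genes). They were Mmp15, a membrane-bound metalloproteinase (2.80-fold), Plau, the urokinase plasminogen activator (2.12-fold), and Adamts7, a secreted metalloproteinase (2.05-fold). In the other line Mmp15 and Plau were lower as well, at -1.10 and -1.75.

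Several of the matrix genes are also markers of fibroblasts. In L6-HGF 4 of 12 fibroblast markers were more than 2-fold higher (33.3%, against 1.17% of all genes), namely Dcn, Dpt, Postn and Lum. The same 4, all of them matrix genes named above, were higher in L6-WT (33.3%, against 0.717% of all genes). The other 8 were within 2-fold in L6-WT. Of these Mfap5, Pi16 and Pdgfra had 0.78, 0.25 and 0.01, Fap, Thy1 and Col3a1 had -0.02, -0.42 and -0.11, and Col1a1 and Col1a2 had -0.43 and -0.36. The median of the fibroblast markers was 0.13, and that of 8 measured skeletal myoblast markers was -0.25. Of the latter 1 was more than 2-fold lower (12.5%, against 0.492% of all genes), Itga7 at -1.14, whose probe sets disagreed as given below. Myod1, Cdh15, Ncam1 and Myog had -0.23, -0.56, -0.31 and -0.28. Des, Chrna1 and Vcam1 had 0.15, 0.15 and 0.35, and Myf5 and Pax7 had no probe set with 1 symbol. In a culture, more cells of a type and more RNA per cell cannot be told apart, and since levels are not kept by the centring, the presence of a marker could not be read from the values. Markers of endothelial cells, macrophages and leukocytes, adipocytes, epithelium, smooth muscle and neural cells had medians between -0.25 and 0.19, with 0 members past 2-fold. Mlana, a melanosome protein, had the third largest positive difference of all genes at 7.48-fold. Sox10, a transcription factor of melanocytes and Schwann cells, had 0.53. In L6-HGF Mlana had 1.28 and Sox10 -0.16. Of the 6 measured neural markers, Sox10 among them, 5 were above 0 in L6-WT and 1 below, Map2 at -0.90. The part of other cell types in these differences was not tested.

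**Figure D2:**
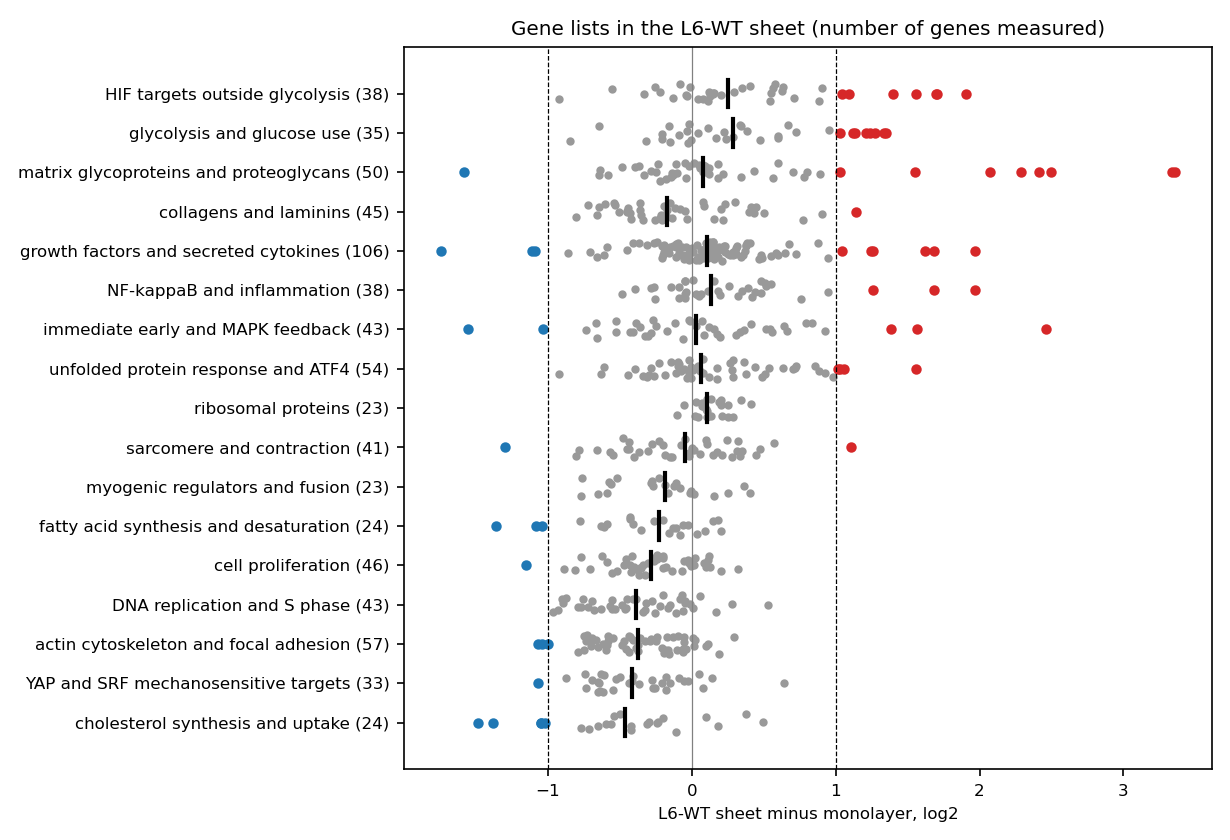
Sheet minus monolayer in L6-WT (horizontal axis, log2) for the measured genes of 17 lists, with 1 point per gene, red and blue where it was more than 2-fold higher or lower, black bars for the medians, and dashed lines marking 2-fold. The red points reach farthest among matrix glycoproteins (3.36 for Dcn), while the bars of the actin, YAP and cholesterol lists lie to the left of 0 at -0.38, -0.41 and -0.46.

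Genes known to be induced at low oxygen were a further group in which most differences were positive. Of 38 HIF targets outside glycolysis 7 were more than 2-fold higher in the L6-WT sheet (18.4%, against 0.717% of all genes) and 0 lower. Their median was 0.25, against 0.03 over all genes, and the lowest of them was Stc2 at -0.93. Of 35 genes of glycolysis and glucose use 8 were higher (22.9%) and 0 lower, with a median of 0.28. The 7 HIF targets were Ankrd37, Bnip3, Ero1a, Car9, Higd1a, Ak4 and Vegfa. Ankrd37, an ankyrin-repeat protein, had the largest difference among them at 3.75-fold. Its values were -0.95 and 0.95 in the L6-WT monolayer and sheet, and -1.13 and 3.14 in the L6-HGF monolayer and sheet, so that the monolayers were close to each other and the L6-HGF sheet was the highest. Bnip3, which targets mitochondria for autophagy, was 3.26-fold higher, and Ero1a, an oxidase that forms disulphide bonds in the endoplasmic reticulum, 3.25-fold. Car9, a carbonic anhydrase at the cell surface, was 2.95-fold higher, and Higd1a, a mitochondrial protein, 2.63-fold. Ak4, a mitochondrial adenylate kinase, rests on 2 probe sets that disagreed, at 2.27 and -0.08.

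Along the glycolytic pathway the genes past 2-fold covered transport, several enzymes of the pathway, and glycogen. The glucose transporter Slc2a1 was 2.19-fold higher. Its values were -0.78 and 0.36 in the L6-WT monolayer and sheet and -0.36 and 2.07 in those of L6-HGF. The enzymes Pfkl, Tpi1, Pgk1 and Eno2 were 2.04-fold, 2.41-fold, 2.32-fold and 2.53-fold higher, in the order in which they act. Pgk1 rests on 3 probe sets from 0.44 to 1.85, and without the probe set ending in _s_at it had 0.90, within 2-fold. Gpi, Hk2, Ldha and Aldoa had 0.95, 0.73, 0.67 and 0.60, whereas the muscle forms Eno3 and Pfkm had -0.85 and -0.32. Pdk1, which keeps pyruvate out of the tricarboxylic acid cycle, was 2.18-fold higher. Gys1 and Gbe1, which build and branch glycogen, were 2.36-fold and 2.55-fold higher.

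Of these 15 genes, 14 had a larger difference in L6-HGF than in L6-WT, Pgk1 being the exception. Over the lists, 21 of the 38 HIF targets were more than 2-fold higher in the L6-HGF sheet, with a median of 1.21, against a background of 1.17% of genes higher and 2.57% lower in that line. Egln3 and Bhlhe40, which are also HIF targets, had -0.08 and -0.04 in L6-WT, and Adm (adrenomedullin) and Plod2 (a collagen hydroxylase) had 0.30 and -0.26, against 3.15 and 1.95 in L6-HGF. With 1 array for each condition, this difference between the lines was not tested.

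Upstream sequences are shown for the genes with the largest difference in L6-WT among HIF targets (Ankrd37 and Bnip3) and glycolysis and glycogen genes (Gbe1), for the glucose transporter Slc2a1 and for Higd1a, because the letters bound by HIF can be seen in them. Arrdc4, which was lower in the L6-WT sheet, is added because the same letters are found there too. All are from RefSeq on the rat genome GRCr8, read 5' to 3' on the strand of the gene and ending before the annotated start: Ankrd37 chr16:53001347-53001501 (plus strand), Bnip3 chr1:203155023-203155112 (minus strand), Slc2a1 chr5:138002362-138002521 (plus strand), Gbe1 chr11:22181196-22181275 (plus strand), Higd1a chr8:130400969-130401088 (minus strand) and Arrdc4 chr1:131793486-131793615 (minus strand). Capitals mark ACGTG or GCGTG on either strand, and CACGTG is 2 overlapping matches.
Ankrd37: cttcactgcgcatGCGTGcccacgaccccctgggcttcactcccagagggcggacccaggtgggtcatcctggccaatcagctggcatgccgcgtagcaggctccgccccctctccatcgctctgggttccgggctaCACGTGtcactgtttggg
Bnip3: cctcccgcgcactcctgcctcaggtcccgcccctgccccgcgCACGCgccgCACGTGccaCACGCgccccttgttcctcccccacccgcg
Slc2a1: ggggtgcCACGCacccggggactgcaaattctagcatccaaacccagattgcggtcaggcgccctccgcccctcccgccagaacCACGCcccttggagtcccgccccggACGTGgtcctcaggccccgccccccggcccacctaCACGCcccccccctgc
Gbe1: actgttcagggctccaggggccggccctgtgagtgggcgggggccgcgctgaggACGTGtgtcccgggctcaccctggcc
Higd1a: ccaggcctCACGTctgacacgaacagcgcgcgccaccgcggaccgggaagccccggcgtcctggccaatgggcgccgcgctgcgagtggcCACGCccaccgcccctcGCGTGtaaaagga
Arrdc4: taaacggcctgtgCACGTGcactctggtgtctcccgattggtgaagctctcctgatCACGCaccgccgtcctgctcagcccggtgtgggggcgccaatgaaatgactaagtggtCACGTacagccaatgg

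Of the 15 higher genes 13 had a promoter entry, a fixed window that spans the annotated start, and 11 of these windows held ACGTG or GCGTG (84.6%). Of all 27457 promoters 42.9% held it, and of the 11733 genes compared here that had an entry 57.8%. The share was 73% over all 63 genes of both lists with an entry. It was 60% over the 80 higher genes with an entry and 64.3% over the lower genes. The letters were thus common on both sides. Dcn, Txnip and Fos had no entry. Other motifs were searched on both strands in the 80 higher genes with an entry and in all genes compared. CCAAT was found in 36.2% against 37.3%, TTTGAA or TTCGAA in 12.5% against 14%, the cAMP and ATF motif in 2.5% against 2.86%, the interferon-stimulated response element in 5% against 2.99% and the serum response element in 2.5% against 1.35%. The AP-1 motif TGANTCA was found in 10 of the 80 (12.5%) in 8.93% of the lower genes and in 5.44% of all genes compared. A match is a run of letters and not a bound site.

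Txnip, the thioredoxin-interacting protein, which lowers glucose uptake and is induced by glucose, had the largest negative difference of all genes. Its values were 2.34 in the L6-WT monolayer, -1.45 in the L6-WT sheet, 1.45 in the L6-HGF monolayer and -2.36 in the L6-HGF sheet. Both sheets lay far below both monolayers, and the differences were 13.8-fold and 14.0-fold in L6-WT and L6-HGF. All of it rests on 1 probe set ending in _a_at. Its relative Arrdc4, also induced by glucose, was 2.24-fold lower in L6-WT, at 0.93 in the monolayer and -0.23 in the sheet, and differed by -0.26 in L6-HGF, whereas Arrdc3 of the same family had 0.84 in L6-WT. Of 29 genes of FOXO signalling and nutrient withdrawal 2 were lower, Txnip and Arrdc4 (6.9%, against 0.492% of all genes). Another 2 were higher (6.9%, against 0.717%), and the median was 0.10. The higher ones were Tsc22d3, a glucocorticoid-induced leucine zipper protein (2.60-fold), and Sgk1, a kinase of the insulin pathway (2.16-fold). The atrophy gene Fbxo32 had 0.21.

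Genes of the unfolded protein and ATF4 responses were partly higher. Of 54 genes 4 were more than 2-fold higher (7.41%, against 0.717% of all genes) and 0 lower, with a median of 0.07. Quantile normalization of the centred values raised the number of higher genes to 8. Ddit3, a transcription factor of prolonged stress, was 2.95-fold higher. Its values were -0.78 and 0.78 in the L6-WT monolayer and sheet, and -0.83 and 1.06 in those of L6-HGF, so that it was high in both sheets. Nupr1, a stress-induced nuclear protein, and the secreted endoplasmic reticulum proteins Manf and Creld2 were 2.09-fold, 2.04-fold and 2.02-fold higher. Creld2 came just within 2-fold when the difference was centred on the median of all probe sets. The chaperone Hspa5 and the folding enzyme Pdia4 had 0.51 and 0.73, and the amino acid transporter Slc7a5 had -0.44.

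Among 106 growth factors and secreted cytokines 6 were more than 2-fold higher (5.66%, against 0.717% of all genes) and 3 lower (2.83%, against 0.492%). The list's median was 0.10. The vascular growth factors Pgf and Vegfa, the latter named above in the list of HIF targets, were 3.07-fold and 2.07-fold higher. Pgf had -0.81 and 0.81 in the L6-WT monolayer and sheet and -0.99 and 1.27 in those of L6-HGF. Vegfa had -0.80 and 0.25 in L6-WT and -0.25 and 1.40 in L6-HGF, so that the L6-HGF sheet was the highest. The 2 probe sets of Pgf gave 2.11 and 1.13, and those of Vegfa 1.19 and 0.90. Inhbb, a subunit of activin B, was 2.37-fold higher, while Fst (follistatin), which binds and blocks activins and myostatin, was 3.35-fold lower. Both probe sets of Fst were past 2-fold, at -1.62 and -1.86. Tgfb3 and Fgf1, growth factors of the transforming and fibroblast families, were 2.16-fold and 2.13-fold lower, and Vegfb, a relative of Vegfa, had -0.86. The 3 probe sets of Fgf1 ranged from -1.41 to -0.87, and with their median (-0.99) it came within 2-fold, which left 2 lower genes in the list.

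Of the inflammatory members of that list Il33, Cxcl1 and Ccl2 were more than 2-fold higher in the L6-WT sheet and had differences below 0 in L6-HGF, and this contrast of the lines was not tested. Others were within 2-fold in L6-WT, such as Ccl7 at 0.95, Tnf at 0.15 and Il1b at 0.03. Il33, an alarmin stored in the nucleus, was 3.91-fold higher. It had -0.29 in the L6-WT monolayer, 1.67 in the L6-WT sheet, 0.02 in the L6-HGF monolayer and -0.02 in the L6-HGF sheet, so that the L6-WT sheet alone stood out. The neutrophil chemokine Cxcl1 was 3.21-fold higher, with -0.02 and 1.66 in L6-WT and 0.02 and -0.73 in L6-HGF. The monocyte chemokine Ccl2 was 2.39-fold higher, with 0.11 and 1.36 in L6-WT and -0.11 and -0.33 in L6-HGF. These 3 were also the members past 2-fold among 38 NF-kappaB and inflammation genes (7.89%, against 0.717% of all genes higher), whose median was 0.13. Il6 and Nfkbia had 0.48 and 0.44, and the NF-kappaB subunits Nfkb1 and Rela had -0.48 and -0.26. Of 45 interferon response genes 1 (2.22%, against 0.717% of all genes), the guanylate-binding protein Gbp2, was 2.14-fold higher, and the median was 0.03. Cxcl10 had 0.55 in L6-WT and -2.41 in L6-HGF, the largest difference between the lines in that direction, which was not tested.

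Of 31 genes of prostaglandin and lysophospholipid synthesis and their receptors 3 were more than 2-fold higher (9.68%, against 0.717% of all genes) and 0 lower. Enpp2 (autotaxin), the secreted enzyme that makes lysophosphatidic acid, was 4.68-fold higher, with -1.39 and 0.84 in the L6-WT monolayer and sheet and -0.84 and 2.76 in those of L6-HGF. Pla2g2a, a secreted phospholipase, was 4.14-fold higher, and Lpar4, a receptor for lysophosphatidic acid, 2.22-fold. In L6-HGF Enpp2 had a difference of 3.60, and Pla2g2a was 3.99-fold higher. The prostaglandin synthases Ptgs1 and Ptgs2 had -0.17 and -0.28, and the list's median was 0.01.

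Immediate early genes lay on both sides. Of 43 such genes 3 were more than 2-fold higher (6.98%, against 0.717% of all genes) and 2 were lower (4.65%, against 0.492%). The median was 0.03. Higher were the transcription factor genes Fos and Junb and the phosphatase gene Dusp1, and lower were the orphan nuclear receptors Nr4a1 and Nr4a3. Fos rests on 2 probe sets that disagreed, at 4.87 and 0.06. Its mean was 2.46, with -0.05, 2.41, -0.27 and 0.10 in the L6-WT monolayer, L6-WT sheet, L6-HGF monolayer and L6-HGF sheet. After quantile normalization of the centred values the mean was 1.57. Junb was 2.96-fold higher, with -0.19 and 1.37 in L6-WT and -0.08 and 0.08 in L6-HGF, and Dusp1 was 2.61-fold higher, with probe sets at 1.65 and 1.12. For these 3 genes the L6-WT sheet stood apart from the other 3 arrays. Ier2, Fosb and Jun had 0.93, 0.84 and 0.56. Nr4a1 was 2.94-fold lower, and Egr1, which is induced by serum through the same signals as Fos, had -0.74. The 3 probe sets of Nr4a3 ranged from -2.73 to 0.18, and their median was -0.56.

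Among genes of lipid synthesis those past 2-fold were all lower. Of 24 genes of cholesterol synthesis and uptake 5 were more than 2-fold lower in the L6-WT sheet (20.8%, against 0.492% of all genes) and 0 higher, and 20 were below 0, with a median of -0.46. The 5 were Idi1 (2.80-fold), Sqle (2.60-fold), Hsd17b7 (2.07-fold), Dhcr7 (2.06-fold) and Msmo1 (2.03-fold), which code for enzymes between isopentenyl diphosphate and cholesterol. Idi1 had 0.59 and -0.89 in the L6-WT monolayer and sheet and 1.16 and -0.59 in those of L6-HGF. Sqle, which carries out the first oxygen-requiring step of the pathway, had 0.46 and -0.92 in L6-WT and 0.98 and -0.46 in L6-HGF. In both genes both sheets were below both monolayers. The sterol exporters Abca1 and Abcg1, which are regulated in the opposite way, had 0.49 and 0.37, and the transcription factor Srebf2 had -0.43. Of 24 genes of fatty acid synthesis and desaturation 3 were lower (12.5%, against 0.492% of all genes) and 0 higher, with a median of -0.23. They were the elongase Elovl6 (2.57-fold), the desaturase Scd (2.12-fold) and the malic enzyme Me1 (2.06-fold). Fasn and Acly had -0.59 and -0.61.

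The actin cytoskeleton and focal adhesion list lay mostly below 0. Of 57 genes 50 were below 0, 3 were more than 2-fold lower (5.26%, against 0.492% of all genes) and 0 higher. The median was -0.38 against 0.03 over all genes. The 3 were Vcl (vinculin), which links integrins to actin, at 2.10-fold, Actn1, the actin cross-linker alpha-actinin, at 2.05-fold, and Myh9, a non-muscle myosin, just past 2-fold. Vcl had 0.34 and -0.73 in the L6-WT monolayer and sheet and 0.65 and -0.34 in those of L6-HGF, and its 3 probe sets gave values from -1.28 to -0.95. With their median (-0.99) Vcl came within 2-fold, which left 2 lower genes in the list. Talin (Tln1), Actn4, Flnc and Pxn had -0.79, -0.75, -0.75 and -0.70, and the cytoplasmic actin Actg1 had 0.01. The 3 beta-actin control probe sets had -0.36, -0.50 and -0.54. Of 33 targets of YAP and serum response factor 29 were below 0, with a median of -0.41. Of the 33, 1 was more than 2-fold lower (3.03%, against 0.492% of all genes), Vcl again, a call lost with the median over its probe sets. The canonical YAP targets Ccn1 and Ccn2 had 0.08 and -0.18. Of 14 smooth muscle contractile markers 0 passed 2-fold, and the median was -0.23, with Acta2 at -0.73 in L6-WT and 0.40 in L6-HGF.

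Among integrins Itga7, the laminin receptor of skeletal muscle, was 2.20-fold lower, with probe sets at -1.88, -1.74 and 0.20. The 2 that were lower end in _a_at, and without them the sign was reversed. The other 17 integrins were within 2-fold, so that 5.56% of the list was lower, against 0.492% of all genes. Itga3 and Itga6 had -0.73 and -0.70. Of 43 cadherins, catenins and junction genes 0 passed 2-fold, and the median was -0.01. N-cadherin (Cdh2) had 0.22, M-cadherin (Cdh15) -0.56 and beta-catenin (Ctnnb1) -0.27. Of 34 intermediate filament and tubulin genes 1 was lower (2.94%), the nestin gene Nes (2.24-fold), an intermediate filament of progenitor cells.

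Few members of the muscle gene lists passed 2-fold, but Styxl2, Klhl41, Casq2 and Pln were among the 15 largest negative differences of all genes. Of 23 myogenic regulators and fusion genes 0 passed 2-fold, and 18 were below 0, with a median of -0.19. Myog, the factor of early differentiation, had -0.28, and Mymk, which is needed for fusion, had -0.76. Of 41 sarcomere genes 1 was higher and 1 lower (2.44% each, against 0.717% and 0.492% of all genes), with a median of -0.05. Myh3 codes for the embryonic form of myosin heavy chain and was 2.46-fold lower, with 1.48 in the L6-WT monolayer, 0.18 in the L6-WT sheet, -0.40 in the L6-HGF monolayer and -0.18 in the L6-HGF sheet, so that the L6-WT monolayer alone was high. Myh1, an adult fast myosin, was 2.15-fold higher, but its 5 probe sets ranged from -0.09 to 1.62, and without those ending in _a_at or _x_at it had 0.45. Myosin heavy chains are near-identical in long stretches, and how far these probe sets tell them apart was not tested. Of 21 genes of calcium handling 2 were lower (9.52%, against 0.492% of all genes), with a median of 0.07. They were Casq2, a calcium-binding protein of the sarcoplasmic reticulum (3.19-fold), and Pln (phospholamban), which restrains the calcium pump (2.88-fold). Casq2 had 1.14 and -0.54 in L6-WT and 0.54 and -1.07 in L6-HGF, and Pln had probe sets from -2.17 to -0.27. Klhl41 and Styxl2, which maintain the sarcomere, were 3.77-fold and 5.13-fold lower, Styxl2 having the second largest negative difference of all genes. Both were also lower in the L6-HGF sheet, at -1.54 and -1.89.

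Genes of cell division mostly had small differences below 0 in L6-WT. Of 46 proliferation genes 1 was more than 2-fold lower (2.17%, against 0.492% of all genes), and 37 were below 0, with a median of -0.29. The lower gene was Espl1, the protease that releases sister chromatids (2.22-fold). Mki67, the Ki-67 antigen, had -0.89, Plk1 -0.77, Ccnb1 -0.06 and Cdk1 0.12. Of 43 genes of DNA replication and S phase 0 passed 2-fold and 38 were below 0, with a median of -0.39. Mcm6 and Cdt1, which license replication origins, had the lowest values, -0.96 and -0.93. Of 25 genes of cell cycle entry 1 was lower (4%), E2f2 (2.24-fold), and the cyclin Ccnd1 had -0.77 and the inhibitor Cdkn1b 0.37. In the L6-HGF sheet 43 of the 46 proliferation genes (93.5%) and 31 of the 43 replication genes (72.1%) were more than 2-fold lower. Of all genes 2.57% were lower in that line, against 0.492% in L6-WT. The list medians were -1.67 and -1.25 in L6-HGF. Each of the 46 and of the 43 had a lower value there than in L6-WT. Depdc1 and Ska1, which act in mitosis, had 0.10 and 0.09 in L6-WT and -1.94 and -2.03 in L6-HGF.

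In the remaining lists few members passed 2-fold, and over all genes 0.717% were higher and 0.492% lower. Of 40 apoptosis regulators 2 were higher (5%), Bnip3 and the inflammatory caspase Casp4 (2.31-fold), and Bcl2 had -0.06. Of 53 genes of the respiratory chain and tricarboxylic acid cycle 1 was higher (1.89%), the muscle cytochrome oxidase subunit Cox8b (2.66-fold). Of 32 NRF2 targets 1 was higher (3.12%), the glutathione transferase Gsta4 (2.13-fold), and 1 lower (3.12%), Me1. Of 37 complement and coagulation genes 1 was higher (2.7%), Anxa8, an annexin that binds phospholipid (2.71-fold). In that list 2 were lower (5.41%), Plau and the thrombin receptor F2r (2.43-fold). The lists of growth factor receptors, of insulin-like growth factor, BMP and TGF-beta, Notch and Wnt, p53, heat shock, lysosome, circadian and ribosomal protein genes held 0 members past 2-fold, with medians from -0.21 to 0.11. Ribosomal proteins lay between -0.10 and 0.41. Among genes often used as references Pgk1 was 2.32-fold higher, while Hprt1, Tbp and Rplp0 had 0.05, -0.03 and -0.10.

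Of the genes discussed in the study, the rat Hgf probe set had -0.09 and the HGF receptor Met -0.61 in L6-WT, against 0.02 and -1.25 in L6-HGF. The vascular receptors Kdr and Flt1 had 0.09 and 0.06. Tgfb1 and Tgfb2 had -0.21 and 0.14, so that Tgfb3 alone of the TGF-beta genes passed 2-fold. Coro1a, an actin-binding protein of leukocytes, Epha3, an ephrin receptor, Efhd1, a mitochondrial calcium-binding protein, and Grem1, an antagonist of BMP, had -0.25, -0.43, 0.37 and 0.39. All 4 were within 2-fold between sheet and monolayer of L6-WT.

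Of the other genes among the 15 largest positive differences, Acap1, a regulator of endosome recycling, was 7.12-fold higher, Itgbl1, an integrin-like secreted protein, 6.16-fold, LOC102553043 5.46-fold, Dnah7, a dynein of cilia, 4.82-fold, Gpr15lg, a chemoattractant, 4.43-fold, and Abca4, a retinoid transporter, 4.33-fold. All 6 had the same sign in L6-HGF, where Acap1 and Abca4 were 17.5-fold and 12.7-fold higher. Among the largest negative differences, Rasl11b, a small GTPase, was 3.63-fold lower, Chst2, a sulphotransferase of glycans, 3.48-fold, Cnksr3, a scaffold of kinase signalling, 3.44-fold, and Map3k7cl 3.12-fold. The transcription factors Pknox2 and Tp63 had -1.58 and -1.54, and Lrrn3, a leucine-rich repeat protein, -1.53. All 7 were lower in the L6-HGF sheet too, from -0.67 for Map3k7cl to -2.32 for Rasl11b. In all, 55 of the 102 higher genes and 40 of the 70 lower genes were in none of the 40 lists.

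**Figure D3:**
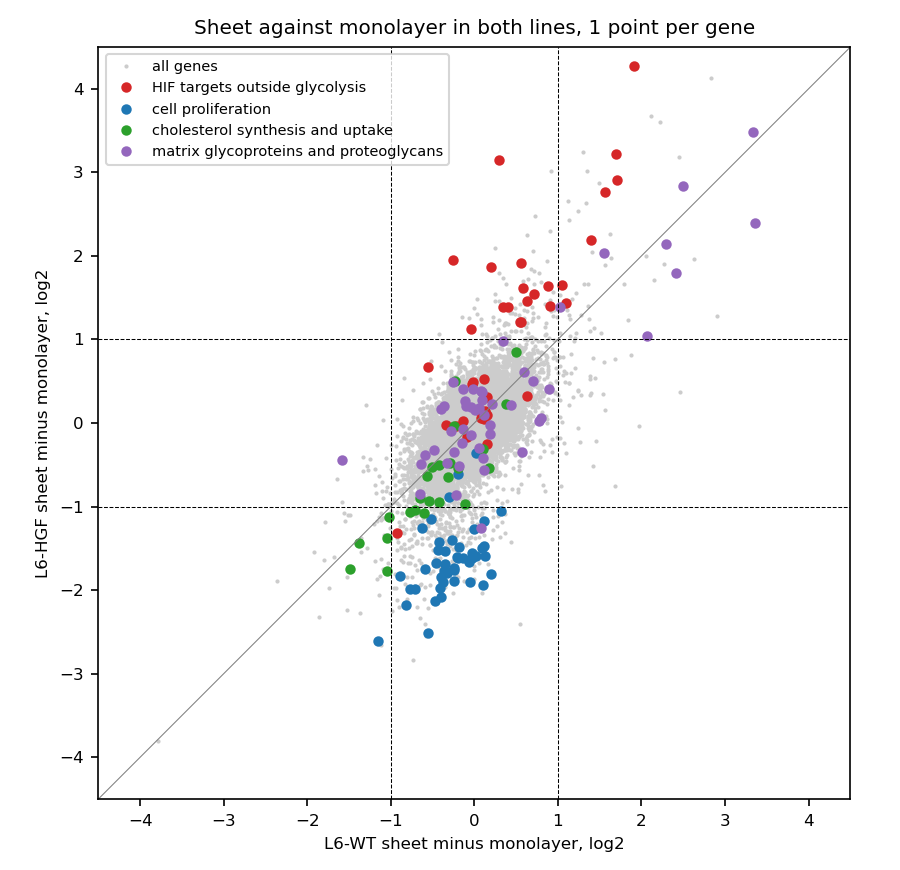
Sheet minus monolayer (log2) in L6-WT (horizontal axis) and in L6-HGF (vertical axis), 1 point for each of 14217 genes, with 4 lists in colour, dashed lines at 2-fold and a diagonal where both lines are equal. Matrix genes (purple) lie on both sides of the diagonal up to 3.36 and 3.48, HIF targets (red) lie mostly above it, and proliferation genes (blue) lie below it.

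The L6-HGF comparison shares no array with that of L6-WT. Over 14217 genes the differences of both lines had a Pearson correlation of 0.63 and a Spearman correlation of 0.58, given as a description, since genes are not independent replicates. Of the 102 genes more than 2-fold higher in the L6-WT sheet 56 were also more than 2-fold higher in the L6-HGF sheet, which is 54.9% of the former and 33.5% of the 167 of the latter. Of the 70 lower genes 42 were lower in both, which is 60% of the former and 11.5% of the 366 of the latter. Of all genes 1.17% were more than 2-fold higher and 2.57% more than 2-fold lower in the L6-HGF sheet. With the centred values quantile-normalized, 71 of 163 higher genes and 31 of 80 lower genes were shared. Of the 102 higher genes 92 had the same sign in L6-HGF, and of the 70 lower genes 68, and 0 genes passed 2-fold in opposite directions. The medians of the 102 genes were 1.34 in L6-WT and 1.08 in L6-HGF, and those of the 70 were -1.17 and -1.13. The genes were chosen by their value in L6-WT. Over all genes the SD of the difference was 0.34 in L6-WT and 0.43 in L6-HGF.

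**Figure D4:**
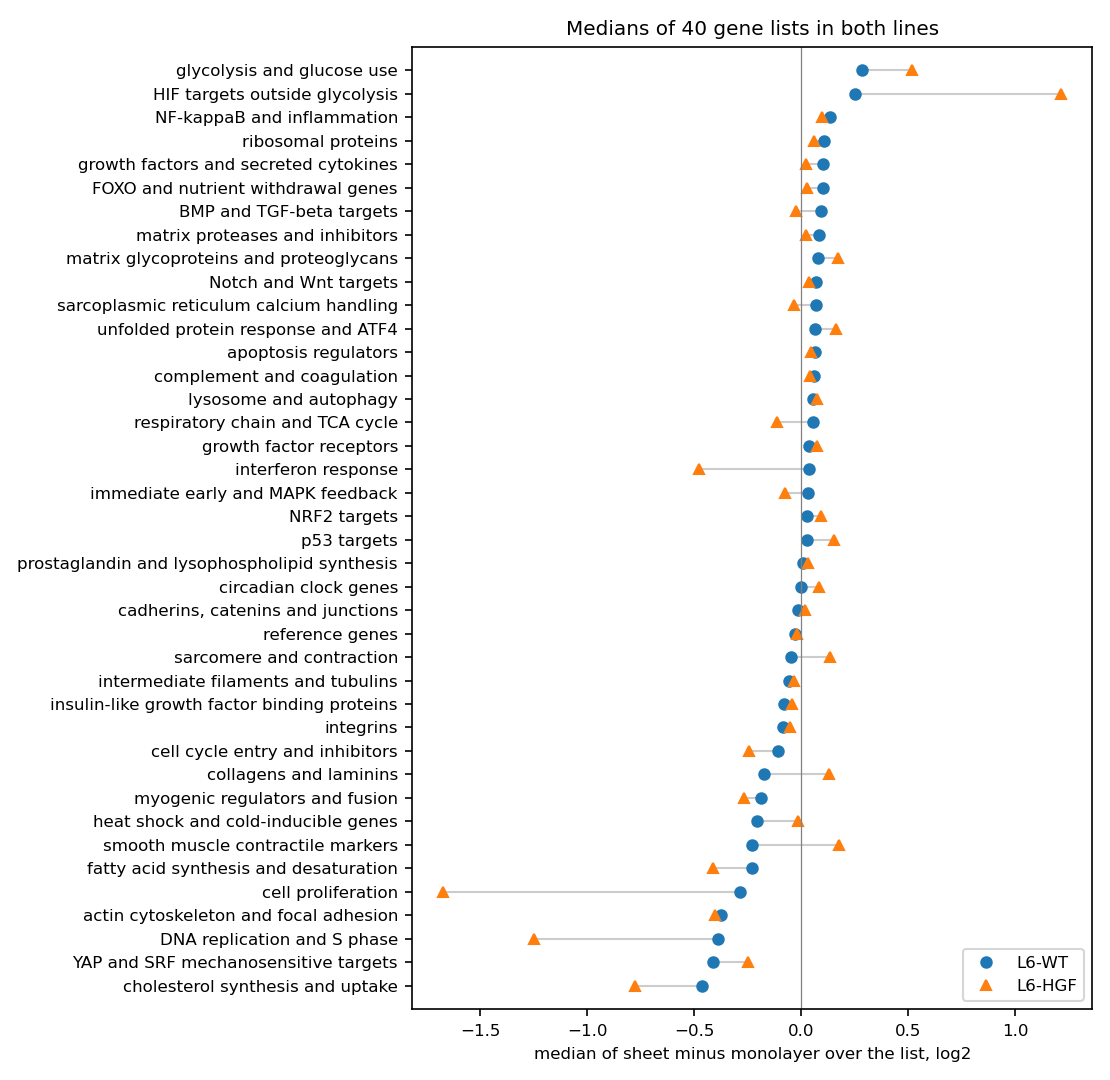
Median of sheet minus monolayer (horizontal axis, log2) over the measured genes of each of 40 lists, with circles for L6-WT and triangles for L6-HGF. The circles lie between -0.46 (cholesterol synthesis) and 0.28 (glycolysis), and the symbols are farthest apart for cell proliferation (-0.29 and -1.67), HIF targets (0.25 and 1.21) and DNA replication (-0.39 and -1.25).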

How the data were processed

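Total RNA of 4 cultures, extracted with Trizol and RNeasy, was hybridised to Affymetrix rat genome arrays, and each condition had 1. RMA was the authors' normalization, which the submitters' processing notes also name without a version, and they deposited log2 values. These deposited log2 values have, for each probe set, a median of 0 across arrays to within 5e-07, so that signal levels are lost and no filter on dim probe sets could be made.

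Probe sets were named through a table of the platform's annotation: 20826 had 1 symbol, 436 several and 9780 were not listed, and 20758 matched the RefSeq gene table, which changed 0 symbols. A gene was the mean over its probe sets. No limma or other test was fitted, since each condition had 1 array. Differences were called past 2-fold, the threshold of the study. Members and the 40 gene lists were chosen with earlier results of these data known. Genes were named by rule: the 15 largest differences in each direction, list members past 2-fold, 6 genes in each direction that differed most between the lines, and genes discussed in the study. Of these 113 genes the text gives most, and members within 2-fold, neighbouring genes, Mlana's companion Sox10 and the promoters shown were picked after their values were seen. Steps were tested on simulated data. Alternatives were quantile normalization, centring, leaving out probe sets ending in _x_at, _s_at or _a_at, the median over probe sets, every probe set past the threshold, and thresholds of 1.5-fold and 3-fold. Calculations ran in Python 3.11.15 with numpy 2.4.6, pandas 2.3.3 and SciPy 1.17.1, and plots were drawn with matplotlib 3.10.9.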

Additional observations from a re-analysis of the deposited data

Results flagged for a closer look

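For 6 of the named genes the difference between sheet and monolayer passed 2-fold in L6-WT and had the other sign in L6-HGF. With 1 array per condition the difference between the lines was not tested. The L6-WT value minus the L6-HGF value was 2.44 for Cxcl1, 2.01 for Il33, 1.48 for Ccl2 and 1.46 for Gbp2, all of which were higher in the L6-WT sheet than in its monolayer. It was -1.52 for Myh3 and -1.13 for Fgf1, which were lower in the L6-WT sheet. In L6-HGF these genes had differences of -0.75, -0.04, -0.22, -0.36, 0.22 and 0.03, within 2-fold in each case.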

How the results depend on the processing

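No paired analysis was possible because each condition had 1 array and the labels carry no replicate numbers. Quantile normalization acted on centred values and so is no normalization of signal levels. It raised the number of probe sets more than 2-fold higher to 268 and of genes higher to 163. Unfolded protein and ATF4 genes higher went from 4 to 8. Genes higher in both sheets went from 56 to 71, and genes lower in both from 42 to 31. At a 1.5-fold threshold 854 probe sets were higher and 1439 lower, 479 genes were higher and 534 lower, and 223 were higher and 298 lower in both sheets. At 3-fold the numbers were 39 and 30 probe sets, 27 and 9 genes, and 19 and 6 genes in both sheets. Itga7 turned to 0.20 without probe sets ending in _x_at, _s_at or _a_at, and of the 94 named genes past 2-fold it was the one that reversed under any alternative. Without those probe sets Myh1 and Pgk1 also came within 2-fold, and Txnip, Ddit3, Espl1 and Tgfb2 had no value. With the median over probe sets Fgf1, Nr4a3 and Vcl came within 2-fold, and with the difference centred Creld2 did. Under quantile normalization 59 of 113 named genes moved by more than the SD of the bacterial controls, 0 of them with a change of sign. The medians of the 40 lists moved by less than that SD under each alternative run, and those of the lysophospholipid and growth factor receptor lists, which are near 0, changed sign under some. Depth in the sense of signal over background could not be judged, since levels are not kept.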

Other observations

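Histone genes were a group picked after their values were seen. Of 12 measured histone genes 10 were above 0 and 5 were more than 2-fold higher in L6-WT, against 0.717% of all genes. The median was 0.77. In L6-HGF 1 was more than 2-fold higher, against 1.17% of all genes, with a median of 0.31, and H1f10 had -1.16. H3c1 had 1.45 in L6-WT and -0.21 in L6-HGF, and H4cl1 had 1.25 and 0.38. The 5S ribosomal RNA control had 0.85 in L6-WT and 0.14 in L6-HGF. The DNA replication and S phase list had medians of -0.39 and -1.25. How the histone values relate to these was not tested.

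Genes outside the lists included Mgarp, a mitochondrial protein (1.88 in L6-WT, 0.81 in L6-HGF), Il1r2, the decoy receptor for interleukin-1 (1.84 and 1.23), and Hilpda, a lipid droplet protein induced by hypoxia (2.82-fold and 7.33-fold), all higher, and Mest, an imprinted gene (-1.51 and -1.10), which was lower. They were picked after their values were seen. Among probe sets with no symbol the largest positive difference was 2.49.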
